A study of Mus musculus with 12 samples.

Results

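The nuclear genes of oxidative phosphorylation were examined in the RNA of mouse skin. They were taken by name from the deposited count table: symbols that begin with Ndufa, Ndufb, Ndufc, Ndufs or Ndufv (complex I), Sdha to Sdhd (complex II), Uqcr (complex III), Cox4 to Cox8 (complex IV) or Atp5 (complex V), not on the mitochondrial chromosome, and with at least 100 counts over the 12 libraries. The names matched 109 genes, of which 103 of the 33539 genes in the table reached the count minimum and 6, all copies or pseudogenes, did not. All 103 also passed the filter on low counts that precedes the test. They comprised 50 genes of complex I, 4 of complex II, 8 of complex III, 21 of complex IV and 20 of complex V.

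Skin was compared in 3 groups: wild-type control (n = 3 libraries), imiquimod-induced skin (IMQ, n = 5) and IMQ-induced skin that also lacked Tcn2 (Tcn2-/- IMQ, n = 4). Imiquimod is a Toll-like receptor agonist that gives a psoriasis-like inflammation on mouse skin, and Tcn2 encodes transcobalamin, which carries vitamin B12 to cells. The labels give neither age, strain, sex, dose nor duration, no untreated Tcn2-/- group is among these samples, and nothing says that replicates are separate animals, so p-values measure the spread between these libraries. The sample titles carry the word muscle, while the tissue is given as skin.

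Oxidative phosphorylation couples the oxidation of NADH and succinate to ATP synthesis in the inner mitochondrial membrane. Complexes I and II pass electrons to ubiquinone, complex III passes them on to cytochrome c, complex IV reduces oxygen, and complex V makes ATP from the proton gradient. Most of its subunits are encoded in the nucleus and made in nearly every cell. Complex IV also has isoforms made mainly, but not always only, in some tissues, here called tissue-restricted. They are Cox6a2, Cox7a1 and Cox8b in heart and skeletal muscle, Cox4i2 in lung and vascular cells, and Cox6b2 in testis. By role, the 103 genes held 77 widespread subunits, 6 tissue-restricted isoforms of complex IV (these 5 and Ndufa4l2, a hypoxia-inducible relative of Ndufa4), 8 assembly factors of complex I (Ndufaf1 to Ndufaf8), Cox7a2l, which joins complexes into supercomplexes, and 11 copies or pseudogenes. Reads of the 11 copies can belong to their near-identical parent genes, so their values are uncertain. Of the 103 genes, 42 overlapped another gene, and 23 overlapped one with at least 10% of their own counts. The latter include Atp5j (with Gabpa), Ndufa4l2 (with Shmt2) and Ndufs6 (with Mrpl36). Whether strand was used in counting is not given in the sources used here, so their reads may be shared with these neighbours.

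Library totals were 16182324 to 18503487 counts, and the 103 genes took 0.709% to 1.33% of them. Tcn2 stood at 19.9 to 141 CPM (counts scaled to library size, with TMM factors) in the control and IMQ libraries and at 1.91 to 5.59 CPM in the Tcn2-/- IMQ libraries, so the labels and the targeted gene match. Control replicate 1 and Tcn2-/- IMQ replicate 2 lay apart from the other libraries on the first principal component of all genes (34.1% of the variance), at −140.5 and −98.6 against −34.1 to 70.7. They also held the 2 highest shares of mitochondrially encoded counts, 10.3% and 8.08% against 2.78% to 6.06%, and low summed levels of fibroblast markers (1627 and 8133 CPM against 8733 to 45766 CPM) and macrophage markers (95.4 and 280.3 CPM against 1056 to 6008 CPM). Control replicates 2 and 3 and IMQ replicate 1 had 18572 to 26187 counts of Xist, the transcript of the inactive X chromosome, and at most 2 of the Y-linked gene Ddx3y. All other libraries had 1605 to 2699 counts of Ddx3y and at most 8 of Xist. Control replicate 1 was thus also the only control library with counts of Ddx3y, and the 2 properties cannot be told apart among controls.

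The level of the genes is given per kilobase of exon, to compare genes of different length. Complex V held the highest, with Atp5b, the catalytic beta subunit, at 462 ± 82.7 CPM per kilobase in control (SD, n = 3), 433 ± 44.7 in IMQ (SD, n = 5) and 547 ± 93.2 in Tcn2-/- IMQ (SD, n = 4). In complex IV, Ndufa4 averaged 346 CPM per kilobase over the 12 libraries, Cox4i1 316 and Cox6a1 256. The muscle isoforms stood lower: Cox6a2 averaged 72.6 CPM per kilobase, Cox8b 60.4 and Cox7a1 12.3, while Cox4i2 averaged 4.51. Uqcrh, which holds cytochrome c1 to cytochrome c, led complex III at 270.3 CPM per kilobase, and Sdhb, the iron-sulphur subunit, led complex II at 104. In complex I, Ndufa7 averaged 113 CPM per kilobase.

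The widespread subunits differed between libraries of the same group. Their summed level was 11058, 7181 and 7424 CPM in control replicates 1 to 3, and 8719.7, 8146, 7806, 6878 and 8361 CPM in IMQ replicates 1 to 5. In Tcn2-/- IMQ replicates 1 to 4 it was 10855.5, 12265, 9291 and 8193 CPM. Control replicate 1 and Tcn2-/- IMQ replicates 1 and 2 were thus high, the other controls and IMQ replicate 4 low, and the 3 groups overlapped. Of the 77 subunits, 43 had their highest level in Tcn2-/- IMQ replicate 2, 14 in control replicate 1, 11 in Tcn2-/- IMQ replicate 1, 7 in Tcn2-/- IMQ replicate 3 and 2 in IMQ replicate 1. The lowest level fell in IMQ replicate 4 for 40 of the 77 and in control replicate 2 for 20. In control replicate 1, 76 of the 77 lay above their own mean over the 12 libraries, against 4 and 7 in the other controls, so the control group was split.

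**Figure D1:**
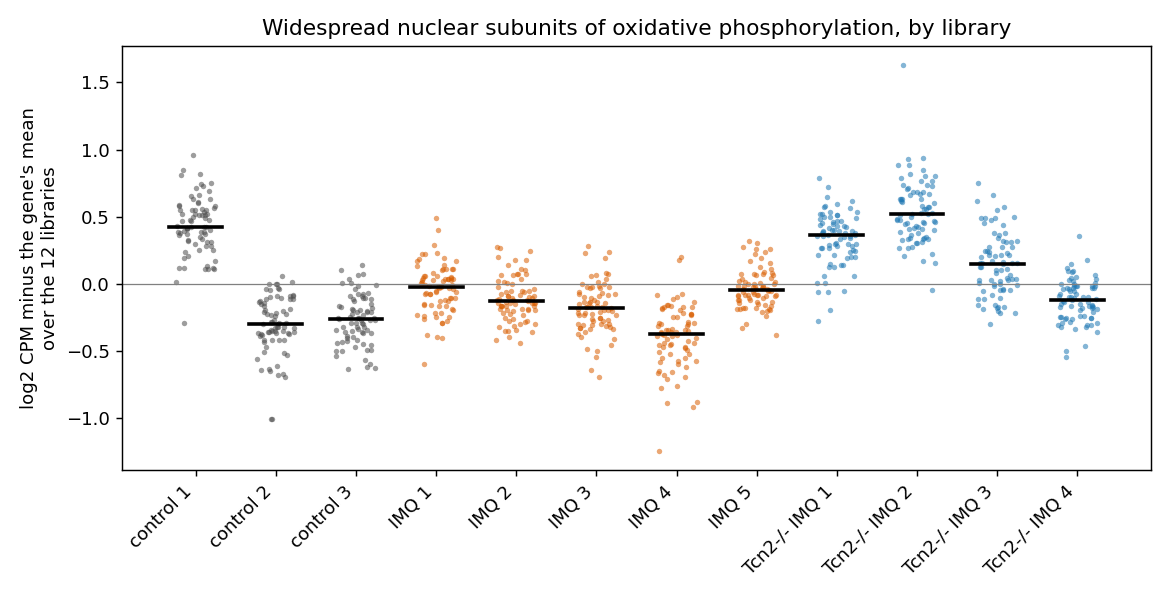
Each point is 1 of the 77 widespread subunits in 1 library, plotted as log2 CPM minus that gene's mean over the 12 libraries, with the median of each library as a bar and colour for the group. Medians run from −0.38 in IMQ replicate 4 to 0.52 in Tcn2-/- IMQ replicate 2, and control replicate 1 (0.43) stands apart from control replicates 2 and 3 (−0.30 and −0.27).

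The first comparison, IMQ against control, asks how the inflamed skin differs from normal skin. None of the 103 genes passed edgeR's quasi-likelihood test at a Benjamini-Hochberg adjusted p below 0.05, against 1.23% of all 18147 genes tested (0.694% higher and 0.535% lower). At an unadjusted p below 0.05, 1 gene was higher (Ndufa4) and 2 were lower (Cox6a2 and Ndufaf5), against 7.48% and 8.11% of all genes. The count of lower genes was 7 without control replicate 2, 5 without control replicate 3, and 0 without control replicate 1 or IMQ replicate 1. The share of all genes lower at this threshold was 6.08%, 7.32%, 6.69% and 7.38% in these settings. The count of higher genes was 3 without control replicate 1 and 2 without IMQ replicate 1, against 6.09% and 7.2% of all genes. With sex as a covariate 1 gene was higher and 10 were lower, against 7.4% and 8.17% of all genes. In that fit the median log2 difference of the 103 genes was −0.24, with 12 above 0. DESeq2 called 1 gene, Ndufa4, against 6.2% of all genes, and limma voom with sample quality weights called 4, against 16.7%. The median log2 difference over the 103 genes was −0.16, beside −0.004 over all genes tested, and was above 0 for 20 and below 0 for 83. The median lay above 0 in 3 other settings. Without control replicate 1 it was 0.10 with 69 of 103 above 0, without both control replicate 1 and Tcn2-/- IMQ replicate 2 it was 0.10 with 68 above 0, and with voom, which weights libraries by quality, it was 0.04 with 63 above 0.

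By complex, the medians for IMQ against control were −0.23 in complex I, −0.26 in complex II, −0.10 in complex III, −0.08 in complex IV and −0.12 in complex V. In complex I 46 of 50 genes were below 0. The core subunits that carry the flavin and iron-sulphur centres were all 7 below 0 (median −0.30), as were 28 of 30 accessory subunits (median −0.21). These counts depend on control replicate 1. The summed level of the widespread complex I subunits was 2933, 1817 and 1837 CPM in control replicates 1 to 3 and 1571 to 2012 CPM in IMQ. Without control replicate 1, 59 of the 77 widespread subunits of all complexes were above 0. Of the 8 assembly factors 6 were below 0. Ndufaf5, an arginine hydroxylase of the core subunit NDUFS7, stood at 14.2, 6.46 and 11.1 CPM in control and at 6.88, 7.87, 6.36, 6.0 and 7.08 CPM in IMQ. The groups overlapped through control replicate 2. Its log2 difference was −0.63 ± 0.28 (SE, edgeR adjusted p = 0.303), and −0.36 without control replicate 1. The widespread subunits of complex IV had a median of 0.06, with 6 of 11 above 0.

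Ndufa4 stood out among the widespread subunits, whose log2 differences for IMQ against control ran from −0.61 (Ndufs7) to 0.87 (Ndufa4). Named for complex I but now placed in complex IV, Ndufa4 had 169.7, 103 and 135 CPM in control, 292, 229, 244, 238 and 237 CPM in IMQ and 171, 249, 257 and 265 CPM in Tcn2-/- IMQ. Every library of both IMQ-induced groups lay above every control library, with Tcn2-/- IMQ replicate 1 just above control replicate 1. The log2 difference was 0.87 ± 0.21 for IMQ against control (SE, edgeR adjusted p = 0.0683) and 0.79 ± 0.21 for Tcn2-/- IMQ against control (adjusted p = 0.101), so neither passed the test. DESeq2 gave adjusted p = 0.00157 and 0.00854 for them, and voom 0.00057 and 0.00146. Over all settings tried, the adjusted p ran from 0.00057 to 0.503 in the first and from 0.00146 to 0.409 in the second, and the difference stayed above 0, at 0.59 to 1.06 and 0.64 to 1.07. Both comparisons share the 3 control libraries. Between the IMQ-induced groups Ndufa4 differed by −0.07 ± 0.18 (adjusted p = 0.894). Ndufa4 has no overlapping gene in the table. In the same cytochrome c oxidase, Cox6a1 differed by 0.30 ± 0.17 and Cox4i1 by −0.23 ± 0.25 for IMQ against control (adjusted p = 0.418 and 0.692).

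In that comparison the libraries did not overlap for 1 gene above control (Ndufa4) and 4 below it, Sdha among them, against 6.79% and 7.4% of all genes. Sdha, the flavoprotein of succinate dehydrogenase, read 217, 200.1 and 201 CPM in control, 163, 178, 185, 178 and 193 CPM in IMQ, and 286, 231, 193 and 198 CPM in Tcn2-/- IMQ. Its IMQ libraries lay below all others, by a margin of under 1 CPM to Tcn2-/- IMQ replicate 3. The log2 difference was −0.20 ± 0.16 for IMQ against control (adjusted p = 0.58) and 0.34 ± 0.15 for Tcn2-/- IMQ against IMQ (adjusted p = 0.395).

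The second comparison, Tcn2-/- IMQ against IMQ, asks how Tcn2 deficiency alters inflamed skin. Here 0 of 103 genes passed edgeR's test, against 0.0276% of all 18147 genes (0.00551% higher and 0.022% lower). At an unadjusted p below 0.05, 21 were higher and 0 lower, against 5.67% and 6.16% of all genes tested. The count of 21 varied with the library left out. It was 3 without Tcn2-/- IMQ replicate 1, 4 without Tcn2-/- IMQ replicate 2 and 7 without IMQ replicate 4. Without IMQ replicate 3 it was 12, and without Tcn2-/- IMQ replicate 4 it was 45. With sex as a covariate it was 8. The share of all genes that were higher at this threshold was 3.2%, 4.25%, 4.98%, 4.64%, 7.73% and 4.54% in these settings. Without IMQ replicates 1, 2 and 5 in turn the count was 24, 14 and 20, against 4.98%, 5.82% and 4.73% of all genes. Without Tcn2-/- IMQ replicate 3 it was 25, against 6.93%. DESeq2 called 1 gene (Cox6a2, adjusted p = 0.0125), against 3.31% of all genes, and voom 0, against 0.154%. The log2 difference was above 0 for 100 of the 103 genes, the exceptions being Ndufa4, Cox4i2 and the copy Cox6c2, with a median of 0.38 beside 0.008 over all genes. By complex the medians were 0.42, 0.38, 0.32, 0.28 and 0.35 for I to V, and all 50 genes of complex I were above 0. The median stayed between 0.27 and 0.47 when any 1 library was left out, and was 0.12 with 83 of 103 above 0 without Tcn2-/- IMQ replicates 1 and 2, a setting chosen after seeing the data. In that setting edgeR called 0 of the 103, against 0.00538% of all genes.

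**Figure D2:**
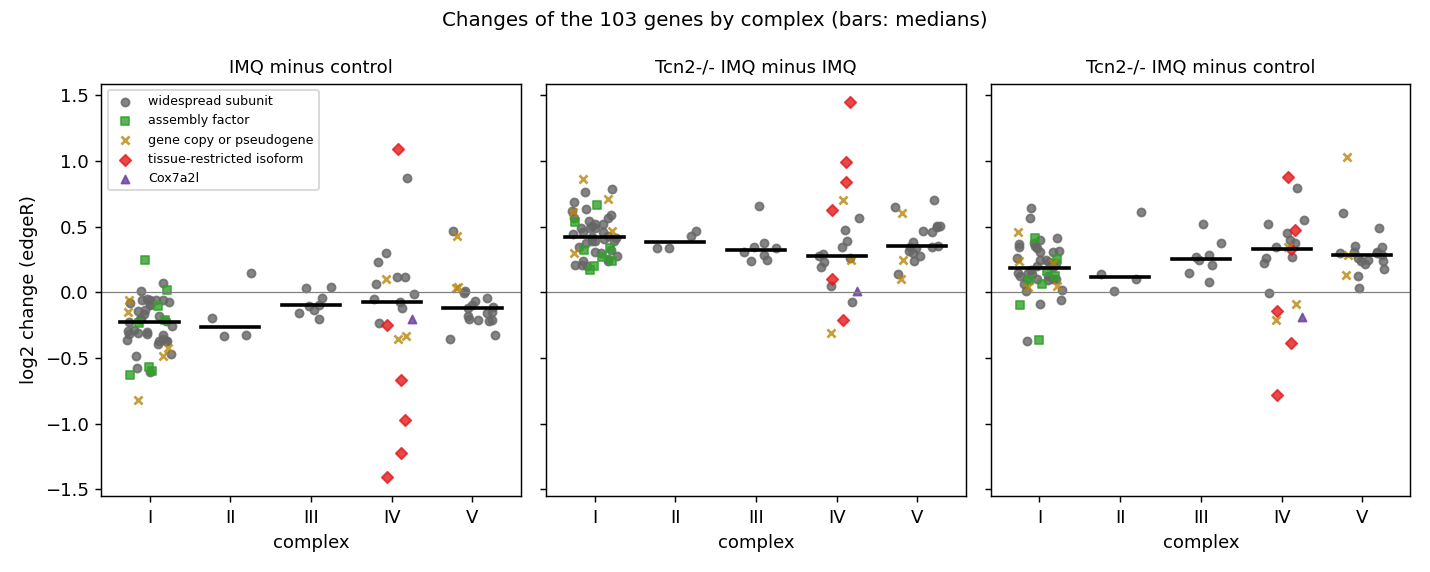
The log2 difference of each of the 103 genes from edgeR's fit, in 1 panel per comparison and 1 column per complex, with the median as a bar and the role of the gene as the symbol. For Tcn2-/- IMQ against IMQ 100 of 103 lie above 0, among them all 50 of complex I. For IMQ against control 83 lie below 0, while 69 lie above 0 without control replicate 1 and 63 with voom, and the isoforms of complex IV spread from −1.41 (Cox6b2) to 1.09 (Cox4i2).

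The 21 genes at an unadjusted p below 0.05 were spread over the complexes: 10 of complex I, 2 of complex II, 1 of complex III, 2 of complex IV and 6 of complex V. Ndufb3, an accessory subunit of the membrane arm, read 17.0, 20.7, 22.2, 18 and 25.5 CPM in IMQ and 44.8, 35.7, 38.0 and 24.1 CPM in Tcn2-/- IMQ. Only Tcn2-/- IMQ replicate 4 reached into the IMQ range. The log2 difference was 0.79 ± 0.23 (SE, edgeR adjusted p = 0.221). Atp5o, the stalk protein that confers oligomycin sensitivity, differed by 0.71 ± 0.28 (adjusted p = 0.354), Uqcrb, at the ubiquinone site of complex III, by 0.66 ± 0.25 (0.338), and Atp5g1, a gene of the proton-conducting c-ring, by 0.65 ± 0.25 (0.338). The least difference among widespread subunits beside Ndufa4 was that of Cox6a1, 0.04 ± 0.15 (0.928).

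For 6 genes all 4 Tcn2-/- IMQ libraries lay above all 5 IMQ libraries, and for 0 below, against 1.71% and 3.18% of all genes. They were Cox6a2, Sdha, Atp5c1, Atp5j, Ndufa5 and Ndufb4, of which the last 4 are named after their values were seen. Ndufb4, a membrane-arm subunit, read 37.2, 32.1, 33.3, 28.3 and 31.5 CPM in IMQ and 50.7, 59.1, 48.3 and 37.7 CPM in Tcn2-/- IMQ. The gap between the groups was under 1 CPM. Its log2 difference was 0.59 ± 0.23 (adjusted p = 0.354).

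The summed levels of several cell type marker lists differed between these groups as well. Muscle fibres are rich in these complexes, and the sample titles name muscle. The summed level of the 29 genes of the muscle fibre list (27 tested, with Tnnc2 and Myh7 at or near 0 in all libraries) was 15406 to 16835 CPM in control, 3669 to 8683 CPM in IMQ and 10149.8 to 41432 CPM in Tcn2-/- IMQ, with 41432 and 23512 CPM in Tcn2-/- IMQ replicates 1 and 2. For Tcn2-/- IMQ against IMQ all 27 tested muscle genes were above 0 (median 1.58, 0 called by edgeR, 25 at an unadjusted p below 0.05). For IMQ against control 25 of 27 were below 0 (median −1.18, 0 called). With the muscle score, the mean log2 CPM of the list, as a covariate, the median of the 103 genes for Tcn2-/- IMQ against IMQ was 0.31, 91 of 103 were above 0, and 0 rather than 21 reached an unadjusted p below 0.05. The shares of all genes at this threshold fell too, to 2% higher and 3.37% lower from 5.67% and 6.16%. The score itself separates IMQ from both other groups. It was 7.87 to 8.03 in control, 5.90 to 7.34 in IMQ and 7.40 to 9.56 in Tcn2-/- IMQ. Muscle content and group thus cannot be told apart in full in either comparison with IMQ. In bulk RNA, fewer cells of a type and less RNA per cell cannot be told apart either. The brown adipocyte list, of cells also rich in mitochondria, held 6 genes, of which 4 were tested. All 4 were below 0 for IMQ against control (median −1.97) and above 0 for Tcn2-/- IMQ against IMQ (median 0.96), with 0 called by edgeR in both. Its summed level was 395 to 651 CPM in control and 24.8 to 537 CPM in IMQ, and 659, 598, 40.2 and 153 CPM in Tcn2-/- IMQ replicates 1 to 4. Elovl3 and Cidea made up most of it in every library but IMQ replicate 3. Ucp1, which defines these cells, stood at no more than 0.238 CPM in any library. The list is therefore not taken here as a measure of brown adipocytes. The adipocyte list of 10 genes went the other way, with 0 called by edgeR in both comparisons. Of these, 9 were above 0 for IMQ against control (median 0.66). All 10 were below 0 for Tcn2-/- IMQ against IMQ (median −0.76).

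Sebaceous gland and neutrophil lists differed between the groups too. All 9 sebaceous genes were below 0 for IMQ against control (median −2.18, 1 called by edgeR) and above 0 for Tcn2-/- IMQ against IMQ (median 1.09, 0 called). Their summed level was 9330 to 12997 CPM in control and 2975 to 7034 CPM in IMQ, and 13886, 11382, 1645 and 4141 CPM in Tcn2-/- IMQ replicates 1 to 4, high in the same replicates 1 and 2 as the widespread subunits. All 7 neutrophil genes tested were above 0 for IMQ against control (median 6.52, 4 called) and below 0 for Tcn2-/- IMQ against IMQ (median −2.74, 0 called). Their summed level was 21.8 to 91.1 CPM in control, 2435 to 11624 CPM in IMQ and 274 to 1285 CPM in Tcn2-/- IMQ. The part of these cell types in the results was not tested.

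Keratinocyte markers of stress and differentiation differed within the Tcn2-/- IMQ group: the summed level of their 9 genes was 4776 and 5026 CPM in replicates 1 and 2, and 39282 and 35735 CPM in replicates 3 and 4, against 13664 to 25956 CPM in IMQ and 1776 to 3094 CPM in control. The same replicates 1 and 2 held the higher summed levels of the widespread subunits. The part of this difference in the results was not tested beyond leaving both libraries out.

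The third comparison, Tcn2-/- IMQ against control, combines both factors. Again 0 of 103 genes passed edgeR's test, against 1.31% of all genes (0.579% higher and 0.733% lower), with 4 higher and 0 lower at an unadjusted p below 0.05 (5.98% and 6.78% of all genes). The count of higher genes was 38 without control replicate 1, where 8.05% of all genes were higher at this threshold. It was 1 without control replicate 2, 2 without control replicate 3 and 9 without Tcn2-/- IMQ replicate 4, against 4.52%, 4.72% and 5.41% of all genes. DESeq2 called 1 gene, Ndufa4, against 5.79% of all genes, and voom called 16, all higher, where it called 16.2% of all genes. The median was 0.24, beside 0.01 over all genes, with 91 of 103 above 0. This value was 0.51 without control replicate 1, 0.08 with sex as a covariate, and −0.0003 with 51 of 103 above 0 without Tcn2-/- IMQ replicates 1 and 2, where edgeR called 1 (Ndufa4), against 3.71% of all genes. Sdhd, a membrane anchor of complex II, read 92.6, 61.7 and 61.8 CPM in control, 78.7, 67.2, 80.3, 76.8 and 96.6 CPM in IMQ, and 118, 108, 131 and 83.5 CPM in Tcn2-/- IMQ. Only Tcn2-/- IMQ replicate 4 lay below control replicate 1. The log2 difference from control was 0.61 ± 0.21 (edgeR adjusted p = 0.198). The other genes at an unadjusted p below 0.05 were Ndufa4, Atp5mpl (0.60 ± 0.28, adjusted p = 0.39), a small subunit of complex V, and the pseudogene Atp5l2-ps (1.03 ± 0.40, adjusted p = 0.29), at 0.449 to 0.909 CPM in control and 1.25 to 1.58 CPM in Tcn2-/- IMQ. For Ndufa4 and Atp5l2-ps the libraries did not overlap, 2 genes higher and 0 lower, against 4.67% and 5.9% of all genes.

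**Figure D3:**
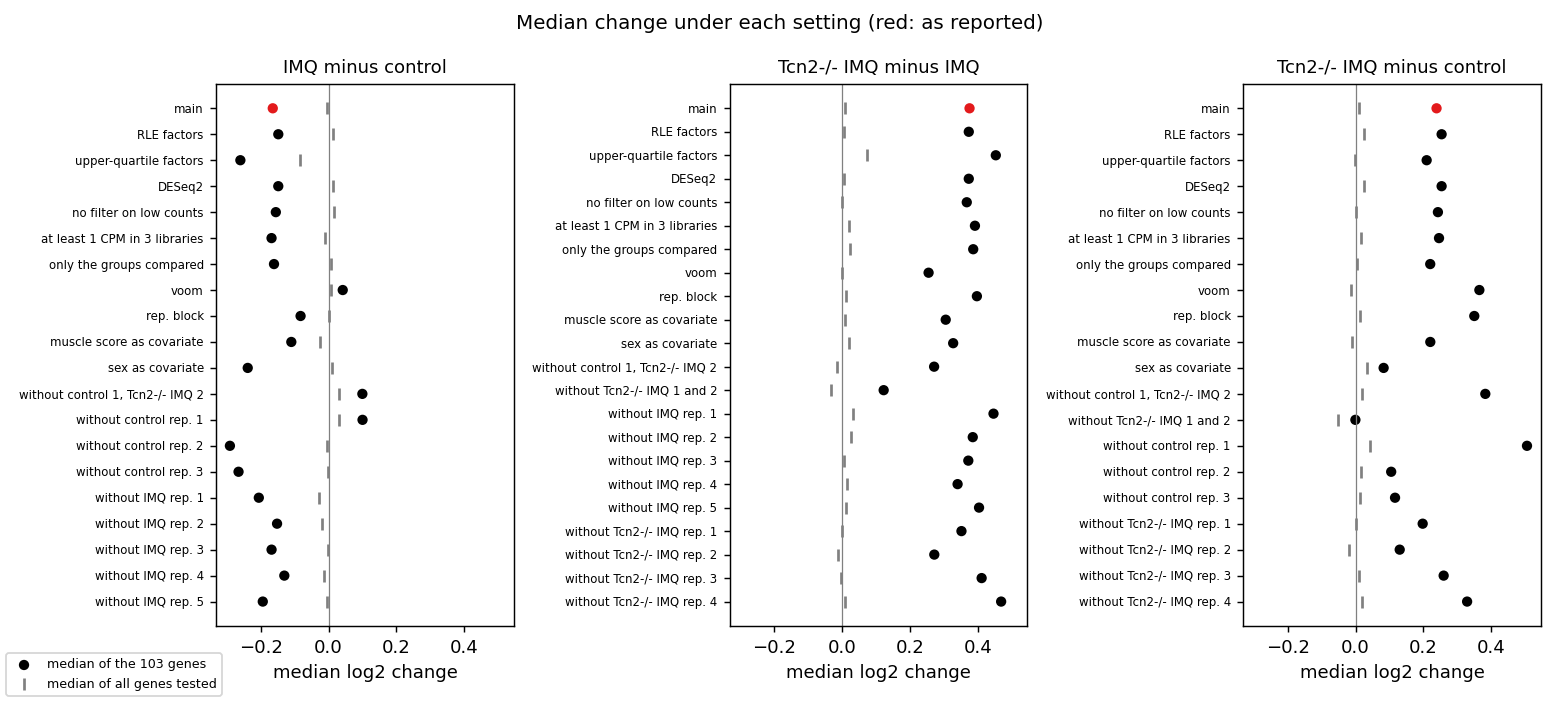
The median log2 difference of the 103 genes (points, red as reported) and of all genes tested (grey ticks) under each setting, in 1 panel per comparison. For IMQ against control the median lies below 0 except with voom (0.04) and in the 2 settings without control replicate 1 (0.10 each), for Tcn2-/- IMQ against IMQ it lies between 0.12 and 0.47, and for Tcn2-/- IMQ against control it reaches −0.0003 without Tcn2-/- IMQ replicates 1 and 2.

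The tissue-restricted isoforms of complex IV had log2 differences of −1.41 (Cox6b2) to 1.09 (Cox4i2) for IMQ against control and of −0.21 (Cox4i2) to 1.45 (Cox6a2) for Tcn2-/- IMQ against IMQ. Cox6a2, the heart and muscle form of subunit 6a, read 69.7, 47.2 and 43.0 CPM in control, 14.6, 14.4, 34.8, 27.2 and 45 CPM in IMQ, and 116, 74.2, 54.8 and 51.7 CPM in Tcn2-/- IMQ. Every Tcn2-/- IMQ library lay above every IMQ library, and IMQ overlapped control through IMQ replicate 5. Its log2 difference was −0.97 ± 0.39 for IMQ against control (edgeR adjusted p = 0.26) and 1.45 ± 0.37 for Tcn2-/- IMQ against IMQ (adjusted p = 0.163), the largest of the 103 genes. With the muscle score as a covariate these were −0.19 ± 0.34 and 0.31 ± 0.36. Both comparisons share the 5 IMQ libraries.

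Cox8b and Cox7a1 are the muscle forms of subunits 8 and 7a. Cox8b read 36.4, 13.7 and 19.9 CPM in control, 5.89, 5.93, 23.0, 15.6 and 23.3 CPM in IMQ, and 42.5, 31.3, 23.7 and 19.8 CPM in Tcn2-/- IMQ. IMQ replicates 1 and 2, which also held the lowest muscle sums (3669 and 4710.1 CPM), were low, and the groups overlapped. The log2 difference was −0.66 ± 0.50 for IMQ against control (adjusted p = 0.549) and 0.99 ± 0.46 for Tcn2-/- IMQ against IMQ (adjusted p = 0.432), and these were 0.16 and −0.17 with the muscle score as a covariate. Cox7a1 read 16.4, 4.94 and 7.44 CPM in control, 1.17, 2.41, 6.79, 3.52 and 6.72 CPM in IMQ, and 13.3, 7.44, 3.83 and 4.90 CPM in Tcn2-/- IMQ, with overlap between all groups. Its differences of −1.22 ± 0.59 and 0.84 ± 0.55 (adjusted p = 0.347 and 0.578) became −0.04 and −0.94 with that covariate. The muscle score does not overlap between IMQ and either other group. The values with this covariate, those of Cox6a2 included, therefore cannot tell muscle content from group.

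**Figure D4:**
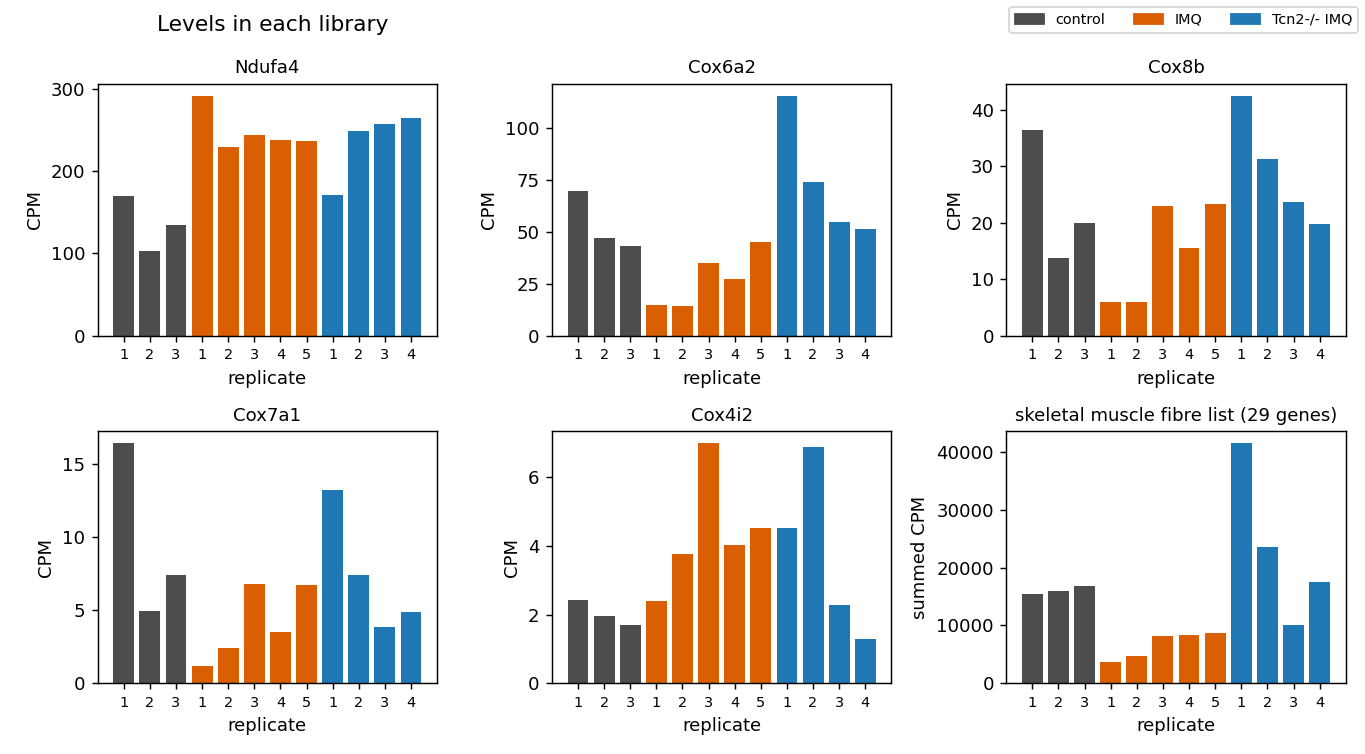
CPM in each of the 12 libraries (bars, replicate number on the x axis, colour for the group) of Ndufa4 and 4 tissue-restricted isoforms of complex IV, with the summed CPM of the skeletal muscle fibre list. Ndufa4 lies between 103 and 169.7 CPM in control and between 171 and 292 CPM in the IMQ-induced libraries, while Cox6a2, Cox8b and the muscle list are lowest in IMQ replicates 1 and 2 and highest in Tcn2-/- IMQ replicate 1.

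Cox4i2, the subunit 4 isoform of lung and vessels, read 2.42, 1.97 and 1.70 CPM in control, 2.39, 3.76, 6.97, 4.0 and 4.5 CPM in IMQ, and 4.52, 6.85, 2.29 and 1.28 CPM in Tcn2-/- IMQ. IMQ replicate 1 fell just below control replicate 1, and the Tcn2-/- IMQ libraries ran from below the lowest control to just under the highest IMQ library. The log2 difference was 1.09 ± 0.51 for IMQ against control (adjusted p = 0.335). The summed level of endothelial markers was 40.1 to 341 CPM in control and 300.4 to 883 CPM in IMQ. In IMQ both were highest in replicate 3. In the other groups the endothelial sum was lowest in the library with the most Cox4i2. It read 40.1, 294 and 341 CPM in control replicates 1 to 3. In Tcn2-/- IMQ replicates 1 to 4 it read 314, 177, 500 and 428 CPM. The part of endothelial cells in the result was not tested. Cox6b2 had 8.30, 1.91 and 1.14 CPM in control and 0.607 to 2.30 CPM in IMQ, so its log2 difference of −1.41 ± 0.70 (adjusted p = 0.36) went with the high value of control replicate 1. Ndufa4l2 had 54.8 to 79.6 CPM in control, 35.1 to 70.1 CPM in IMQ and 21.9 to 96.6 CPM in Tcn2-/- IMQ, and differed by −0.25 ± 0.40 for IMQ against control (adjusted p = 0.801).

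Each restricted isoform except Cox6b2 was also set against its widespread partner within the same library, a ratio that needs no scaling between libraries. In control replicates 1 to 3 there were 47.7, 43.6 and 37.3 counts of Cox6a2 per 100 counts of Cox6a1, against 9.14, 8.25, 24.1, 20.1 and 31 in IMQ and 83.6, 38.4, 35.2 and 37.1 in Tcn2-/- IMQ. The IMQ libraries lay below all others. The mean log2 ratio differed by −1.39 for IMQ against control (2-sided exact permutation p = 0.0357, the smallest that 3 against 5 libraries allow) and by 1.48 for Tcn2-/- IMQ against IMQ (exact permutation p = 0.0159, the smallest possible for 4 against 5). Neither passed after adjustment over the 15 tests of 5 pairs in 3 comparisons (adjusted p = 0.134 each).

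The log2 ratio of Cox4i2 to Cox4i1 was −7.14 to −6.68 in control and −6.53 to −5.13 in IMQ, a difference of 1.21 without overlap (exact permutation p = 0.0357, adjusted 0.134). That of Ndufa4l2 to Ndufa4 was −1.09 to −0.91 in control, −2.70 to −1.76 in IMQ and −3.51 to −1.46 in Tcn2-/- IMQ. Control lay above both other groups, by 1.16 against IMQ (exact permutation p = 0.0357, adjusted 0.134) and by 1.17 against Tcn2-/- IMQ (exact permutation p = 0.0571, the smallest for 3 against 4, adjusted 0.171). Ndufa4, the denominator, itself differed from control by 0.87 ± 0.21 in IMQ and 0.79 ± 0.21 in Tcn2-/- IMQ. The ratio is thus not a result separate from that of Ndufa4. The ratios of Cox7a1 to Cox7a2 and of Cox8b to Cox8a overlapped between groups in all 3 comparisons, with adjusted p of 0.268 to 0.923.

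Promoters of isoform partners and of Sdhd are shown to compare what precedes a widespread and a muscle gene. RefSeq's GRCm38.p6 windows of 300 bases, from 250 before to 50 after the start, were matched for 76 of the 103 genes (73.8%), too few for a check over all of them, but for 65 of the 77 widespread subunits. Cox6a2, Cox4i2 and Ndufa4l2 had no entry. Capitals mark matches, on either strand, to the motifs ETS (CCGGAAG), YY1 (AAGATGGC), GC box (GGGCGG) and ERR half-site (AAGGTCA), and to the longer NRF1 and MEF2 consensus motifs, which allow alternative bases. No marked match overlaps another.
Cox6a1, chr5:115348909-115349208, minus strand: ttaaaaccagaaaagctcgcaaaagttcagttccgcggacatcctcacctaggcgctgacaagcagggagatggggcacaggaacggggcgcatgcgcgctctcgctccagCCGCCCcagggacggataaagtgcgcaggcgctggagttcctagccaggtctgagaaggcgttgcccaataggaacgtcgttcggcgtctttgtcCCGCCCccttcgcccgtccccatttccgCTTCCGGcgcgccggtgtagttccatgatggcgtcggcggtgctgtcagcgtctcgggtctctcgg
Cox7a1, chr7:30183921-30184220, plus strand: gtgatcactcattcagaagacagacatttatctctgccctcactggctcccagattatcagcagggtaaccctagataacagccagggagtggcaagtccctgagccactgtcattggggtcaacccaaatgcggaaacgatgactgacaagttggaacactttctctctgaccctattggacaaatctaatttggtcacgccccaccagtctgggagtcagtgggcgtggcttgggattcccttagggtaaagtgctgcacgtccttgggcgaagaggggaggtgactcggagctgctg
Cox7a2, chr9:79759804-79760103, minus strand: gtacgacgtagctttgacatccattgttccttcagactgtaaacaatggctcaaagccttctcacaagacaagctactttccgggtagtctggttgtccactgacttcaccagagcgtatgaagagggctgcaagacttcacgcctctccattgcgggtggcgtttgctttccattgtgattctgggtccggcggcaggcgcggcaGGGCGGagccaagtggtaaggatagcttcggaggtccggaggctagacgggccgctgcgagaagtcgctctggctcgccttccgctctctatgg
Cox8b, chr7:140900397-140900696, minus strand: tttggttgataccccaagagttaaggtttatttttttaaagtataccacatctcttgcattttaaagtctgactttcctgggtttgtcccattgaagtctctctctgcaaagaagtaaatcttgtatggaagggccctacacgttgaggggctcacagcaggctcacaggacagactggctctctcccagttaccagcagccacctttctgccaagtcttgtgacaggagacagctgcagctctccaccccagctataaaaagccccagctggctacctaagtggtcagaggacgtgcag
Cox8a, chr19:7217567-7217866, minus strand: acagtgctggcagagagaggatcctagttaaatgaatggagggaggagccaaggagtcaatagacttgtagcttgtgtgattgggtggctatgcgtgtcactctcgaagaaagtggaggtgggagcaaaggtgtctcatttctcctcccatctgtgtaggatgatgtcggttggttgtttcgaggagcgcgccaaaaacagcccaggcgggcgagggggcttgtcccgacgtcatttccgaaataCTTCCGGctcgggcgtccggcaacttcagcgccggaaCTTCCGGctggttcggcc
Ndufa4, chr6:11907401-11907700, minus strand: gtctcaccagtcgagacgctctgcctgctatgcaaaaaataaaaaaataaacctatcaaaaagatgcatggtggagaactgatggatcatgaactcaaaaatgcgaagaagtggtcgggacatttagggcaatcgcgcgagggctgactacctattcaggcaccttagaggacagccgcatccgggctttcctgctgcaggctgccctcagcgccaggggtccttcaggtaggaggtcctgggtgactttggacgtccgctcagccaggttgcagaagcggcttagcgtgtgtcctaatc
Sdhd, chr9:50603800-50604099, minus strand: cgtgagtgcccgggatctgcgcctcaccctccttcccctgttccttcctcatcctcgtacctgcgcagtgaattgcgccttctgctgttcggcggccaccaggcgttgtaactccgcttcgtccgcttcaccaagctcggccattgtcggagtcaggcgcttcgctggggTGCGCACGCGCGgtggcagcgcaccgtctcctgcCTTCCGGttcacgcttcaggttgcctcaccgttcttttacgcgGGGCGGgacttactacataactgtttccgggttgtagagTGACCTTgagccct
The windows of the muscle isoforms Cox7a1 and Cox8b and of Ndufa4 held none of these letters. Cox6a1 held an ETS motif and 2 GC boxes, Cox8a 2 ETS motifs, Cox7a2 a GC box, and Sdhd an NRF1 motif, an ETS motif, a GC box and an ERR half-site. Among the 65 widespread subunits NRF1 was found in 10.8%, against 1.41% of the 27025 genes with a window, ETS in 26.2% against 9.93%, and YY1 in 15.4% against 3.19%. The ERR half-site was found in 12.3% against 5.38%, the GC box in 40% against 38.2% and MEF2 in 0% (0 of 65) against 3.7%. A match describes letters in the window and not a bound site.

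Genes that act with the complexes but carry other names were described from lists. For Tcn2-/- IMQ against IMQ, 15 of 15 genes of the tricarboxylic acid cycle, which feeds the chain with NADH and succinate, were above 0 (median 0.36, 0 called by edgeR). At an unadjusted p below 0.05, 8 were higher, against 5.67% of all genes. Their summed level was 3105, 2783, 2082 and 2302 CPM in Tcn2-/- IMQ replicates 1 to 4, against 1853 to 2030 CPM in IMQ. It was thus also highest in replicates 1 and 2. Idh3b, a subunit of NAD-dependent isocitrate dehydrogenase, differed by 0.56 ± 0.18 (adjusted p = 0.246), and Pdha1, of pyruvate dehydrogenase, by 0.45 ± 0.14 (0.249). Of other subunits and carriers 11 of 12 were above 0 (median 0.26), with Slc25a4, the ADP/ATP carrier of heart and muscle, at 1.05 ± 0.33 (0.245) and Vdac1, a channel of the outer membrane, at 0.47 ± 0.18 (0.325). Of assembly factors, 9 of 11 for complexes I and II (median 0.19; Acad9 0.88 ± 0.31, adjusted p = 0.294) and 23 of 25 for complexes III to V (median 0.26; Bcs1l 0.69 ± 0.23, adjusted p = 0.258) were above 0. Among 13 regulators of mitochondrial gene expression the median was 0.12, and Ppargc1a, the coactivator PGC-1 alpha, differed by 0.94 ± 0.33 (adjusted p = 0.292). No gene of these lists passed edgeR's test in any of the 3 comparisons.

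For IMQ against control the same lists had medians of −0.21 (tricarboxylic acid cycle, 14 of 15 below 0), −0.30 (other subunits and carriers, 11 of 12 below 0), −0.16 and −0.27 (assembly factors) and −0.04 (regulators). The 2 smallest p in the assembly list for complexes III to V were those of Coa6 (−0.55 ± 0.20, edgeR adjusted p = 0.225) and Bcs1l (−0.62 ± 0.24, 0.248). For Tcn2-/- IMQ against control the medians were 0.16, 0.08, 0.08, −0.02 and 0.17 in the same order, and Higd1a, a hypoxia-inducible factor of complex IV, differed by 1.05 ± 0.39 (adjusted p = 0.258).

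The 13 mitochondrially encoded subunits, which pair with the nuclear ones in complexes I, III, IV and V, had medians of −0.68, 0.50 and −0.18 in the 3 comparisons, with 0 called by edgeR. Their summed level was 89482, 29052 and 52222 CPM in control, 26199 to 43927 CPM in IMQ and 33816 to 75665 CPM in Tcn2-/- IMQ, highest in control replicate 1 and Tcn2-/- IMQ replicate 2 as for the nuclear subunits. Of the X-linked subunits, Cox7b differed by 0.56 ± 0.23 for Tcn2-/- IMQ against IMQ (adjusted p = 0.362), Ndufb11 by 0.32 ± 0.23 (0.596) and Ndufa1 by 0.24 ± 0.26 (0.746).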

How the data were processed

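For the 12 skin libraries, made from poly(A) RNA, the authors deposited whole-number counts per gene that are not normalized, on GRCm39 per the submitters' processing notes. Which aligner, counter, annotation and strand setting were used is not stated there. Members and gene lists were chosen with earlier results of these data known. In R 4.3.3, edgeR 4.0.16 (TMM factors, filterByExpr over the 3 groups, 18147 genes kept) fitted 1 quasi-likelihood model with a mean per group to all 12 libraries. Tests were 2-sided, p-values were adjusted over all genes tested, and the threshold was 0.05. The common biological coefficient of variation was 0.463. Levels per kilobase used exon lengths of the GENCODE annotation of GRCm38, which all 103 genes had. Isoform ratios used counts plus 0.5 and exact permutation tests, adjusted over 15. Alternatives were DESeq2 1.42.0, limma 3.58.1 voom, other scalings and filters, the groups compared alone, a replicate block, muscle score or sex as a covariate, and leaving out libraries. Named with values were the isoform pairs, the highest member per complex, the 6 smallest p per comparison, the extremes per complex and the X-linked members; not every gene so picked is described, and 1 item is not reported here. The fits were tested on simulated data. PCR reads carry no molecular identifiers.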

Additional observations from a re-analysis of the deposited data

Results flagged for a closer look

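In groups of 4 or 5 libraries, 100 groups of values were screened for a library far from the others, and 6 were found; chance gives about 1 in 20. Ndufa4 stood at 292 CPM in IMQ replicate 1, above the other IMQ libraries, and at 171 CPM in Tcn2-/- IMQ replicate 1, below the other libraries of its group. In Tcn2-/- IMQ replicate 2, Atp5mpl (138 CPM) and Ndufb2 (12.8 CPM) stood high. Cox8a was low in Tcn2-/- IMQ replicate 4 (71.1 CPM). The log2 ratio of Cox6a2 to Cox6a1 was high in Tcn2-/- IMQ replicate 1 (−0.26), the library with the highest summed level of muscle markers (41432 CPM). The part of that library's muscle RNA in these values was not tested.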

How the results depend on the processing

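No member passed edgeR's test in any comparison under any other scaling or filter, with the groups compared alone, with a covariate, or with any 1 library left out. DESeq2 called 1 in each comparison (against 6.2%, 3.31% and 5.79% of all genes), voom called 4 for IMQ against control (16.7%), 0 for Tcn2-/- IMQ against IMQ (0.154%) and 16 for Tcn2-/- IMQ against control (16.2%), and edgeR called 1 (Ndufa4, 3.71% of all genes) in the last without Tcn2-/- IMQ replicates 1 and 2, a setting chosen after seeing the data; the cause was not tested. The median difference of the members ran from −0.29 to 0.10, from 0.27 to 0.47 and from 0.11 to 0.51 with 1 library left out. Some genes turned sign: Cox8b for IMQ against control (0.045 with voom, 0.16 with the muscle score), Sdha, Cox8b and Cox7a1 for Tcn2-/- IMQ against IMQ with the muscle score (−0.031, −0.17 and −0.94), and for Tcn2-/- IMQ against control Cox6a2 (−0.070 with sex as a covariate, −0.00032 without replicates 1 and 2) and Cox4i2 (−0.18 without them); the cause was not tested. With 1 library left out, the log2 ratio of Cox8b to Cox8a ran from −0.092 to 0.29 and that of Cox6a2 to Cox6a1 from −0.21 to 0.21 for Tcn2-/- IMQ against control, and that of Ndufa4l2 to Ndufa4 from −0.26 to 0.43 for Tcn2-/- IMQ against IMQ. Deviations of libraries with the same replicate number correlated at −0.53 to 0.42 over 10 pairs. Those with different numbers correlated at −0.50 to 0.60 over 37 pairs. Whether a shared number marks more than a label cannot be told from these ranges. With the replicate block the medians were −0.08, 0.40 and 0.35 and 0 members were called.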
